A study of Mus musculus with 12 samples.

Results

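The integrated stress response genes Atf4, Atf5, Ddit3, Trib3, Asns and Chac1 and the serine and one-carbon genes Phgdh, Psat1, Shmt2 and Mthfd2 were followed in muscle stem cells of wild-type and Sestrin knockout mice. These 10 genes were taken by symbol from 30154 genes with estimated counts, and all 10 were among the 15890 genes that passed the filter on low counts. The kinases GCN2, PERK, PKR and HRI phosphorylate the initiation factor eIF2alpha when amino acids run short, proteins misfold or heme is lacking, and translation slows while that of the ATF4 messenger goes up. ATF4 then switches on genes that make or import amino acids, among them those of serine synthesis, and genes such as Ddit3 and Trib3 that decide how a cell copes with lasting stress. Sesn2, one of the deleted genes, is itself a target of ATF4, and its protein restrains mTORC1 when leucine is scarce. Muscle stem cells rest between injuries and divide after one, when their need for serine, nucleotides and one-carbon units grows.

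Cells were sorted by flow cytometry from 3 hind limb muscles, the quadriceps, gastrocnemius and tibialis anterior, of C57BL/6J mice aged 2-3 months. The wild-type and the Sestrin1,2 Knockout genotype were each sampled on day 0, which is before injury, and on days 7 and 21 after it, with 2 libraries in each of the 6 groups. The labels name no kind of injury, sex, batch or pooling of animals, and do not say how the knockout alleles were made. They do not say that the 2 libraries of a group came from separate animals, so p-values measure only the spread between libraries, which may be technical. The 12 libraries held 28396780 to 38950514 estimated counts.

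The deleted gene Sesn2 was checked first, in CPM, the counts of a gene relative to the scaled library size. At day 0 it stood at 75.1 and 84.3 CPM in the wild-type and at 5.47 and 7.03 CPM in the knockout libraries. At day 7 it stood at 44.9 and 47.4 CPM in the wild-type and at 2.36 and 1.92 CPM in the knockout libraries. At day 21 it stood at 8.92 and 82.1 CPM in those labelled wild type, and at 9.86 and 108 CPM in those labelled knockout. Of the 4 day 21 libraries 2, labelled wild type replicate 1 and knockout replicate 2, thus went against their labels, so day 21 results are given by label, over both labels together, and without these 2 libraries. Sesn1, the other deleted gene, stood at 70.3 and 68.6 CPM in the day 0 wild type and at 46.0 and 45.8 CPM in the knockout (edgeR adjusted p = 0.144), and at 84.0 and 67.9 against 28.4 and 22.4 CPM at day 7 (edgeR adjusted p = 0.0301). At day 21 it stood at 43.7 and 78.3 CPM under the wild-type label and at 41.7 and 67.2 CPM under the knockout label, low in the libraries where Sesn2 was low. Of the 8 muscle stem cell markers none was at 0 in all libraries of a group, and their summed level was 939 to 1490 CPM at day 0. Markers of immune cells summed to 2.80 to 5.35 CPM at day 0 and 12.2 to 44.6 CPM at day 7. Those of glial cells summed to 933 to 1241 CPM and those of mural cells to 580 to 1178 CPM at day 0. Fibro-adipogenic markers summed to 8044 to 14770 CPM at day 0 and 22730 to 28490 CPM at day 7, most of it from the matrix genes Dcn and Col1a1. Over all libraries the other fibro-adipogenic markers stood at 96.9 to 536 CPM for Lum, 18.6 to 101 CPM for Pdgfra and 7.65 to 33.6 CPM for Ly6a, and the stem cell factor Pax7 stood at 10.2 to 60.2 CPM.

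Target genes of ATF4 often carry the composite element that ATF4 binds together with a C/EBP protein, searched here as TGATGNAA on both strands in RefSeq promoters of GRCm38.p6, from 250 bases before to 50 bases after the start site. It was found in 1304 of 32851 promoters, or 3.97%, and in 3 of the 12 promoters of the 10 genes, those of Asns, Chac1 and Trib3. The 3 are shown because the expression of these genes is described below, with the matched letters in capitals. The match lay 23 to 16 bases before the start site in Asns, on the gene's own strand. In Chac1 it lay 193 to 186 bases before the start site and in Trib3 15 to 22 bases after it, both on the other strand. These start sites are those of RefSeq and differ from the gene positions printed below. By those positions the match in Asns lies inside the gene and that in Trib3 lies before it. The longer endoplasmic reticulum stress response element was in 0.119% of the promoters and in none of these genes. A match is a description of letters and was not tested for binding.
Asns, chr6:7693210-7693459, minus strand: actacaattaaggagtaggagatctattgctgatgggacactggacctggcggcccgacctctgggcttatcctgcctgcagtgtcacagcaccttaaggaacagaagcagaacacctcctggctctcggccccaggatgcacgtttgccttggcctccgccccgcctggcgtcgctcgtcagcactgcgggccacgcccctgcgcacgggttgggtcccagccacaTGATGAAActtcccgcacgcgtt
Chac1, chr2:119350992-119351241, plus strand: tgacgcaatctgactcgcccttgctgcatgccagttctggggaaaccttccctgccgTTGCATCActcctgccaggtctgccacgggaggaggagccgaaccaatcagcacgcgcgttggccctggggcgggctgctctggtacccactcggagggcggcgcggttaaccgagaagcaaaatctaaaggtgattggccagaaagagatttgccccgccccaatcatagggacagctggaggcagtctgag
Trib3, chr2:152344028-152344057, minus strand: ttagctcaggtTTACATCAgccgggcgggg

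Levels of different genes were compared in TPM, a unit that takes transcript length into account. In the day 0 wild-type libraries Atf4 stood highest, at 480 ± 2.66 TPM (SD, n = 2), at the 98.3 percentile of the genes tested. Ddit3 followed at 155 ± 2.46 TPM, then Phgdh at 51.3 ± 0.229, Shmt2 at 35.7 ± 1.37, Psat1 at 31.8 ± 6.48, Asns at 17.5 ± 1.55 and Mthfd2 at 11.3 ± 1.29 TPM. Chac1 at 6.38 ± 0.804, Trib3 at 5.66 ± 0.892 and Atf5 at 3.77 ± 0.337 TPM were lowest. The pairs Shmt2 with Psat1 and Chac1 with Trib3 overlapped there, and the other neighbours did not. At day 7 the serine synthesis genes Phgdh and Psat1 stood above Ddit3 in the wild-type libraries, with no overlap. Phgdh reached 93.0 ± 9.59 TPM and Psat1 80.1 ± 2.46 TPM, against 58.0 ± 3.05 TPM for Ddit3. In the day 7 knockout libraries Psat1 and Ddit3 overlapped, at 84.4 ± 6.75 and 78.1 ± 4.42 TPM. Over all 12 libraries only Atf4, at 307 to 569 TPM, did not overlap its neighbour in the order. Mthfd2 varied most, 5.05-fold from its lowest to its highest library, followed by Trib3 at 4.50-fold, and Shmt2 varied least, at 1.77-fold.

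**Figure D1:**
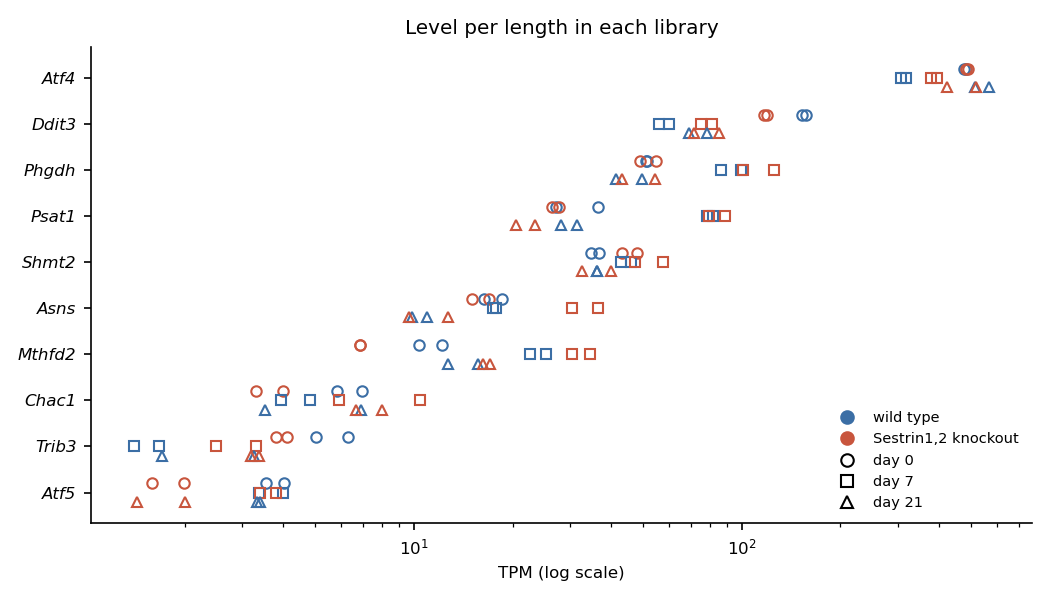
Level of each gene in TPM on a log scale, with 1 point per library, coloured by labelled genotype and shaped by day. Atf4 lies apart from the rest at 307 to 569 TPM, and the day 7 squares of Phgdh and Psat1 lie to the right of their day 0 circles.

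Before injury, the question is what loss of the Sestrins changes in resting cells. At day 0 the knockout libraries held less Atf5, Mthfd2, Asns and Ddit3 than the wild-type libraries, with falls of 0.40 to 1.15 on the log2 scale, while Atf4 itself differed by only -0.04 (SE 0.129, edgeR adjusted p = 0.88). In all, 4 of the 10 genes were called, all lower, beside 27.4% of all genes tested, of which 14.8% were higher and 12.6% lower. Values below are CPM, log2 fold changes are knockout against wild type from edgeR's quasi-likelihood fit to all 12 libraries, and p-values are adjusted over all genes tested.

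Atf4 (ENSMUSG00000042406, chr15:80255184-80257541 on GRCm38, as are all gene positions here) encodes the transcription factor at the centre of the response. It stood at 584 and 594 CPM in the day 0 wild-type libraries and at 573 and 577 CPM in the knockout libraries, which did not overlap but lay close together. Atf5 (ENSMUSG00000038539, chr7:44812256-44816658), a related factor linked to mitochondrial stress, stood at 5.06 and 4.64 CPM in the wild type and at 2.43 and 1.91 CPM in the knockout. Both knockout libraries were the lower ones, a log2 fold change of -1.15 (SE 0.257, edgeR adjusted p = 0.0092). Atf5 rests on 52 to 176 counts in these libraries, and its exons overlap those of Il4i1 and Nup62 on the other strand. Il4i1 was at most 0.926 CPM in any library. Nup62, matched by symbol since its identifier in the counts differs from that of the annotation, stood at 38.8 and 42.3 CPM in the wild type and at 28.5 and 19.1 CPM in the knockout and fell by 0.77 (SE 0.207, edgeR adjusted p = 0.0214). The labels name no stranded counting, so reads of Atf5 and Nup62 cannot be told apart where they overlap. Ddit3 (ENSMUSG00000025408, chr10:127290774-127296288), which encodes the factor CHOP, stood at 71.1 and 71.4 CPM in the wild type and at 52.4 and 55.7 CPM in the knockout. The libraries did not overlap and the log2 fold change was -0.40 (SE 0.127, edgeR adjusted p = 0.0416). Its exons overlap those of Mars on the other strand, for which the fold change was 0.24 (edgeR adjusted p = 0.128), and those of Gm4189, which was not analysed here. The annotation also holds another Ddit3 gene on the same strand, identical over 105 aligned bases and not in the count table, so how reads were shared between them is uncertain.

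Trib3 (ENSMUSG00000032715, chr2:152337422-152344032), a pseudokinase that restrains ATF4 and CHOP, stood at 7.43 and 9.39 CPM in the day 0 wild type and at 5.47 and 5.49 CPM in the knockout. The knockout libraries were lower, but the log2 fold change of -0.62 (SE 0.318) missed the threshold, with an edgeR adjusted p of 0.175. Chac1 (ENSMUSG00000027313, chr2:119351229-119354381), an enzyme that degrades glutathione, stood at 7.97 and 6.73 CPM in the wild type and at 4.38 and 3.68 CPM in the knockout. It too missed the threshold, with a log2 fold change of -0.86 (SE 0.37, edgeR adjusted p = 0.108). Both genes are low, at 100 to 356 counts in these libraries.

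Asns (ENSMUSG00000029752, chr6:7675169-7693254) encodes asparagine synthetase, and its promoter held the composite element printed above. It stood at 22.1 and 21.3 CPM in the day 0 wild type and at 14.9 and 13.8 CPM in the knockout, without overlap. The log2 fold change was -0.59 (SE 0.127, edgeR adjusted p = 0.0077). In TPM the difference was smaller and the libraries overlapped, with 18.6 and 16.4 TPM in the wild type and 17.0 and 15.0 TPM in the knockout. There the fold change on the log2(TPM + 1) scale was -0.12, with a limma adjusted p of 0.604. The transcript length that links the 2 scales, relative to its mean over libraries, was 0.975 and 1.06 in the wild type and 0.754 and 0.776 in the knockout. With that length as an offset in edgeR the fold change was -0.19 (adjusted p = 0.509), so the day 0 call for Asns holds for counts and not per length.

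**Figure D2:**
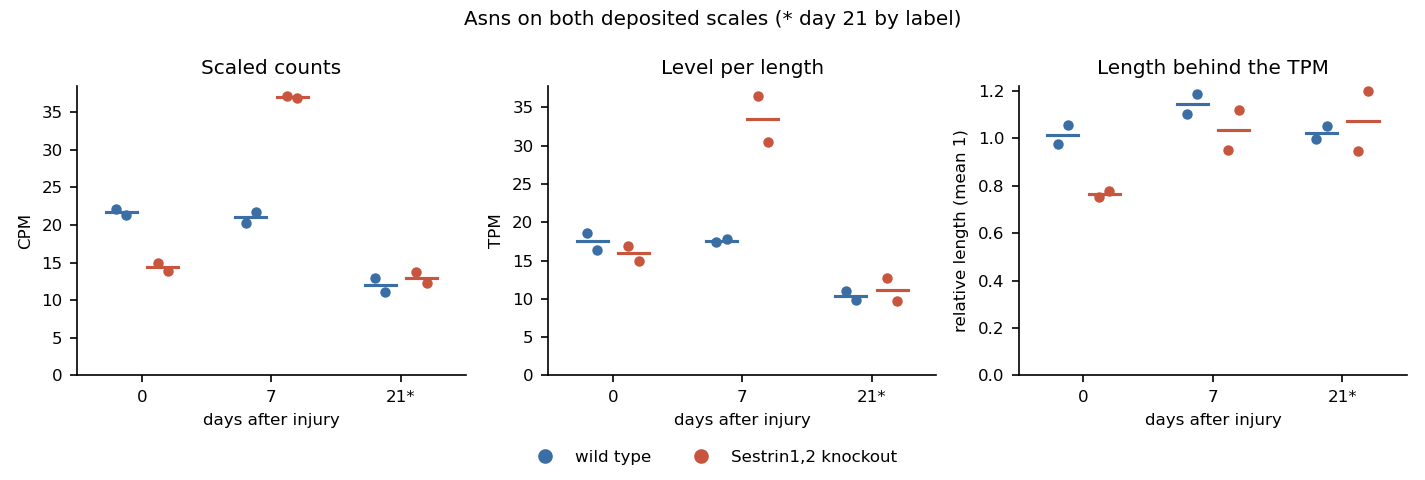
Asns in each library by day and labelled genotype, in CPM, in TPM and as the relative length that links them, with points for libraries and lines for group means. The day 0 knockout libraries lie below the wild type in CPM, overlap it in TPM and have the shortest lengths, 0.754 and 0.776.

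Phgdh (ENSMUSG00000053398, chr3:98313170-98339990), the enzyme of the first step of serine synthesis, stood at 69.9 and 71.0 CPM in the day 0 wild type and at 63.7 and 71.3 CPM in the knockout. Psat1 (ENSMUSG00000024640, chr19:15904678-15947337), the aminotransferase of the next step, stood at 55.5 and 47.7 CPM in the wild type and at 47.6 and 45.0 CPM in the knockout. Neither passed the test, with log2 fold changes of -0.06 (SE 0.179) and -0.16 (SE 0.167). Phgdh has 19 near copies in the annotation, of which 9 are in the count table and sum to at most 0.276 CPM, and Psat1 has 1, at no more than 0.0369 CPM. How the counting shared reads among these copies is uncertain. 

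Shmt2 (ENSMUSG00000025403, chr10:127517123-127522444), which turns serine into glycine in mitochondria, was the only one of the 10 with a positive fold change at day 0. It stood at 59.1 and 63.0 CPM in the wild type and at 70.4 and 80.02 CPM in the knockout, with a log2 fold change of 0.30 (SE 0.121) that missed the threshold at an edgeR adjusted p of 0.089. Its exons overlap Ndufa4l2 on the other strand, which fell in the same comparison by 0.78. Mthfd2 (ENSMUSG00000005667, chr6:83305691-83325908), which carries the one-carbon unit onward in mitochondria, stood at 14.9 and 16.1 CPM in the wild type and at 9.55 and 10.2 CPM in the knockout. It fell without overlap, by 0.65 (SE 0.149, edgeR adjusted p = 0.0106).

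**Figure D3:**
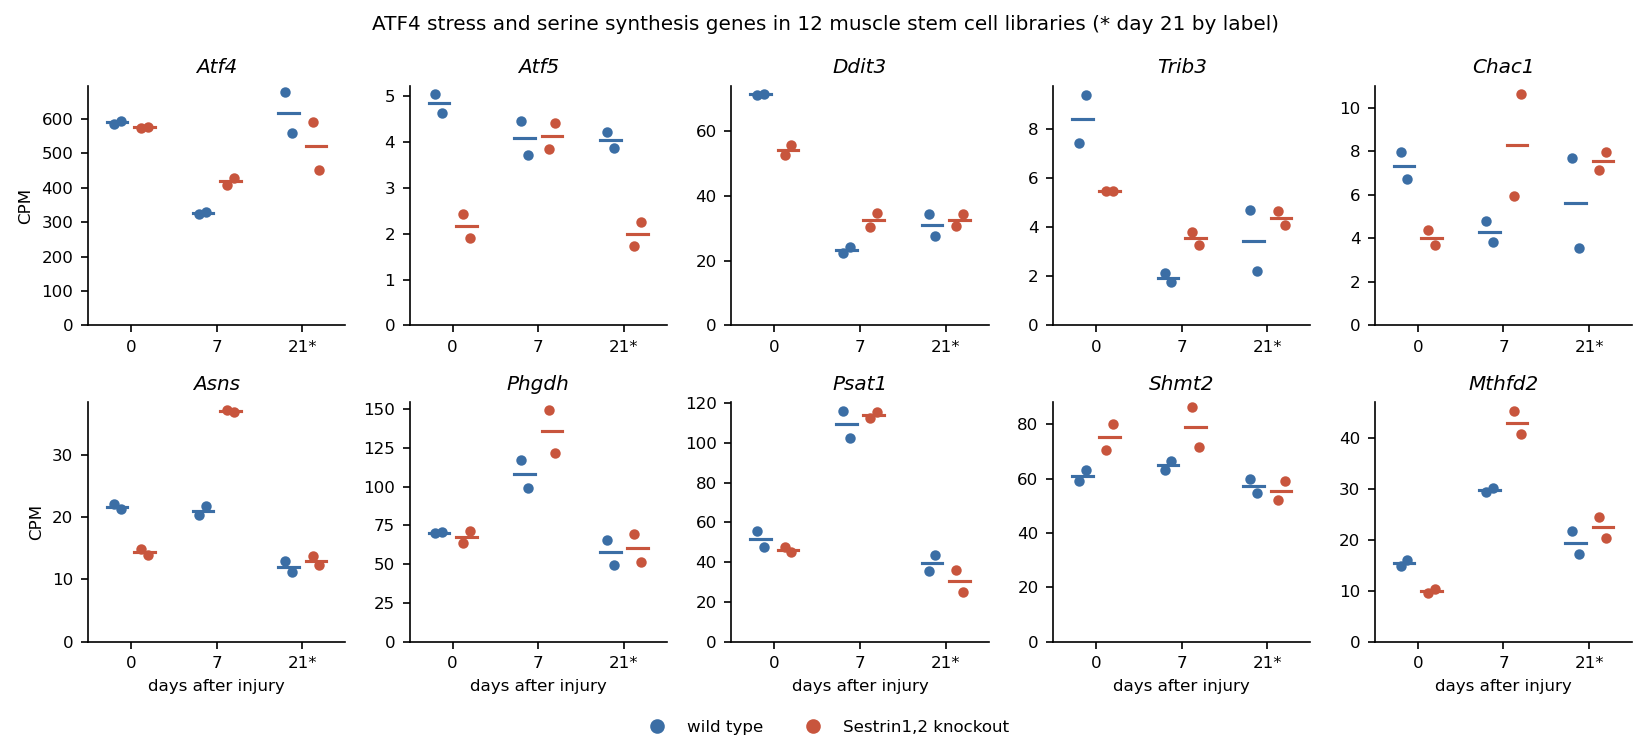
CPM of the 10 genes in each library, by days after injury and labelled genotype, with points for the 2 libraries of a group and a line for their mean. Knockout points lie below wild-type points for Asns and Mthfd2 at day 0 and above them at day 7.

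The median fold change of the 10 at day 0 was -0.49 and that of all genes 0.00. Genotypes did not overlap for 9 of the 10, beside 75.1% of all genes. The calls leaned on single libraries: 0 remained without knockout replicate 2, 1 without wild-type replicate 1, and 2 each without knockout replicate 1 or wild-type replicate 2, beside 10.1%, 10.9%, 15.3% and 12.3% of all genes. The calls so lost had edgeR adjusted p of 0.0617 to 0.19, with fold changes that kept their sign, and that of Ddit3 was also lost without either wild-type day 7 library, at 0.0606. Other gene lists differed in the same libraries, and their part in these results was not tested. Of 11 cell cycle genes 8 were lower and none higher in the day 0 knockout, with sums of 169 to 174 CPM against 265 to 278 CPM, and of 8 muscle stem cell markers 6 were lower, with sums of 939 to 985 CPM against 1481 to 1490 CPM. All 5 red blood cell markers were lower, with sums of 193 to 204 CPM against 877 to 883 CPM, and fibro-adipogenic markers summed to 8044 to 8398 CPM against 14590 to 14770 CPM, with 1 of 5 called lower. Sums were higher in the knockout for mural markers, at 1063 to 1178 CPM against 580 to 595 CPM (1 of 4 called higher), for glial markers, at 1218 to 1241 CPM against 933 to 977 CPM (1 of 4), and for endothelial markers, at 217 to 224 CPM against 142 to 167 CPM (1 of 5). Dissociation stress genes also summed higher, to 19270 to 20580 CPM against 16180 to 17140 CPM, with 3 of 11 called higher and 1 lower. None of these markers was at 0 in all libraries of a group. In bulk samples fewer cells of a type and less RNA per cell cannot be told apart.

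At day 7 all 10 genes had a positive knockout against wild-type fold change, while at day 0 all but Shmt2 had a negative one. Asns passed the test, 1 gene of the 10, beside 1.76% of all genes, 1.08% higher and 0.680% lower. Asns stood at 20.3 and 21.8 CPM in the wild type and at 37.2 and 37.0 CPM in the knockout, and both knockout libraries lay above every other library of the series. Its log2 fold change was 0.82 (SE 0.1249, edgeR adjusted p = 0.0151). In TPM the libraries were apart as well, at 17.4 and 17.8 TPM against 36.5 and 30.4 TPM.

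Among the transcription factors, Atf4 stood at 325 and 329 CPM in the day 7 wild type and at 407 and 429 CPM in the knockout, a log2 fold change of 0.35 (SE 0.13). Ddit3 stood at 22.3 and 24.2 CPM in the wild type and at 30.3 and 34.6 CPM in the knockout, a log2 fold change of 0.48 (SE 0.129). Neither gene overlapped between genotypes, and neither passed the threshold over all 12 libraries, with edgeR adjusted p of 0.236 and 0.105. Atf5 stood at 4.47 and 3.72 CPM in the wild type and at 3.86 and 4.42 CPM in the knockout and overlapped, so the gap of day 0 was not seen at day 7.

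The feedback gene Trib3 stood at 2.13 and 1.76 CPM in the day 7 wild type and at 3.83 and 3.28 CPM in the knockout. Chac1 stood at 4.78 and 3.83 CPM in the wild type and at 5.94 and 10.7 CPM in the knockout, whose libraries differed from each other more than the lower one did from the wild type. Their log2 fold changes of 0.87 (SE 0.329) and 0.94 (SE 0.366) had edgeR adjusted p of 0.25 and 0.267. The value of Chac1 was 0.46 without knockout replicate 2, the library at 10.7 CPM, and ran from 0.46 to 1.30 over the 26 alternatives run.

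Of the serine and one-carbon enzymes, Mthfd2 stood at 29.4 and 30.1 CPM in the day 7 wild type and at 45.2 and 40.7 CPM in the knockout. The libraries did not overlap, and the log2 fold change of 0.53 (SE 0.143) had an edgeR adjusted p of 0.108. Phgdh stood at 118 and 99.3 CPM in the wild type and at 150 and 122 CPM in the knockout, a log2 fold change of 0.33 (SE 0.178). Psat1 overlapped between genotypes, at 116 and 103 CPM against 113 and 116 CPM. Shmt2 stood at 63.2 and 66.4 CPM in the wild type and at 86.5 and 71.7 CPM in the knockout, a log2 fold change of 0.29 (SE 0.12, edgeR adjusted p = 0.309) close to the one at day 0. Over the 26 alternatives the day 7 value ran from 0.14 to 0.42 and the day 0 value from 0.21 to 0.39.

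At an unadjusted p under 0.05, 7 of the 10 genes were higher in the day 7 knockout, beside 8.02% of all genes. Genotypes did not overlap for 8 of the 10, beside 47.4% of all genes, and the median fold change of the 10 was 0.42. When the day 21 libraries were kept out of the fit, edgeR called 4 of the 10 higher, namely Asns, Mthfd2, Ddit3 and Atf4, beside 7.46% of all genes. Without only the 2 day 21 libraries that Sesn2 contradicted it called the same 4 genes, beside 6.90% of all genes, and DESeq2 on all 12 libraries called 3, beside 4.95%. The Asns call was lost without any 1 of the 4 day 7 libraries, with edgeR adjusted p of 0.0549 to 0.179 and fold changes of 0.77 to 0.87. None of the 11 cell cycle genes was called by edgeR at day 7, and none had an unadjusted p under 0.05, although the fit on day 0 and day 7 alone called 1. Their sums were 914 to 1002 CPM in the wild type and 988 to 999.5 CPM in the knockout. The glial markers summed to 184 to 216 CPM in the day 7 knockout against 137 to 145 CPM in the wild type. Dissociation stress genes summed to 7333 to 7906 CPM against 7972 to 8248 CPM. Of these 11, 0 were called on the 12 libraries, and 2 were higher and 1 lower on day 0 and day 7 alone. Of the 8 muscle stem cell markers 1, Chrdl2, was called lower, with overlapping sums of 1383 to 1536 CPM against 1427 to 1553 CPM. No fibro-adipogenic marker was called by edgeR on the 12 libraries, and 1 of 5 was higher in the fit on day 0 and day 7 alone. Their sums did not overlap, at 27910 to 28490 CPM in the knockout against 22730 to 24140 CPM. Markers of differentiating muscle cells summed to 2366 to 3163 CPM against 2073 to 2373 CPM, with 0 of 4 tested called on the 12 libraries and 1 higher on day 0 and day 7 alone. Among them Myh3, the embryonic myosin heavy chain gene, stood at 358 and 295 CPM in the knockout against 142 and 182 CPM. Acta1 was higher too, at 1747 and 1204 CPM against 849 and 1152 CPM. Myog went the other way, at 847 and 763 CPM against 1005 and 893 CPM, and Ckm overlapped, at 210 and 103 CPM against 76.5 and 146 CPM. The part of these lists in the day 7 results was not tested.

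**Figure D4:**
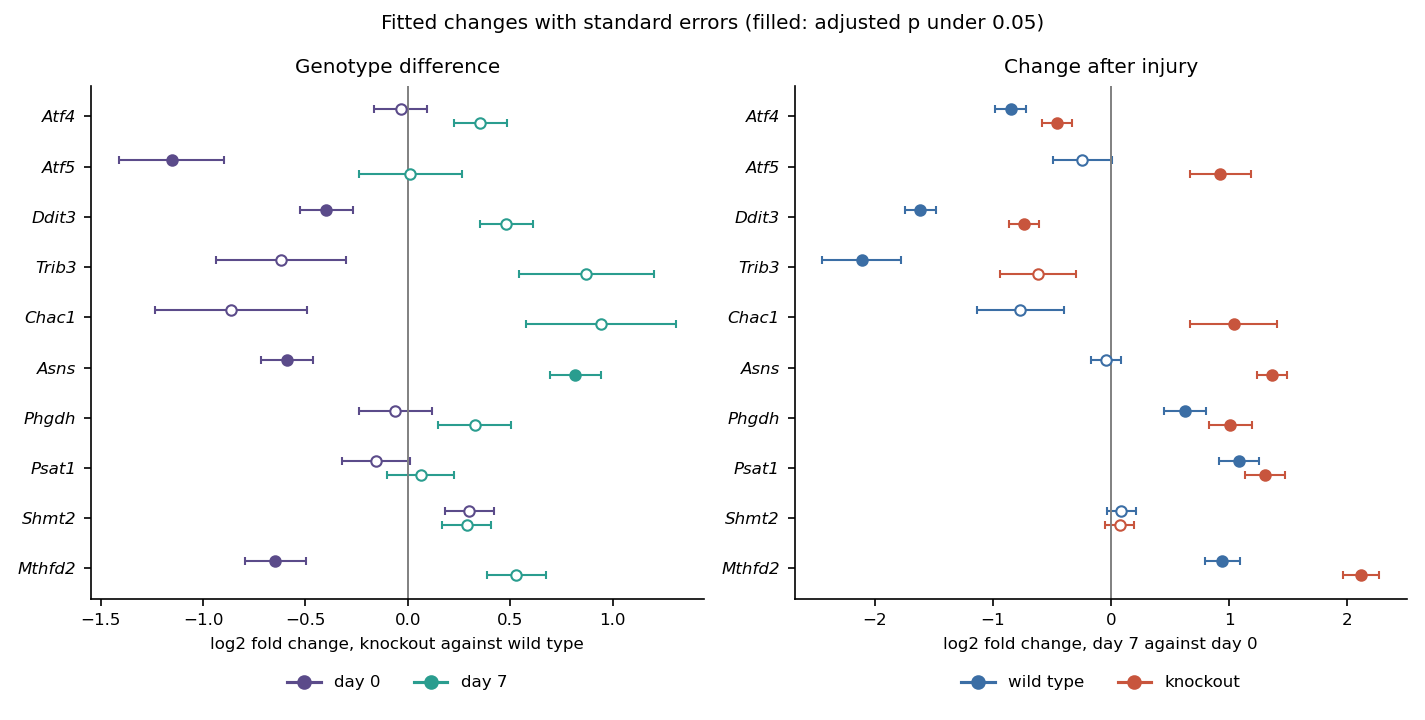
Log2 fold changes with standard errors from the fit to all 12 libraries, between genotypes at day 0 and day 7 (left) and from day 0 to day 7 in each genotype (right), with filled points where the adjusted p was under 0.05. For Asns, Mthfd2 and Ddit3 the genotype difference lies below 0 at day 0 and above 0 at day 7.

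The next comparisons address what injury changes in each genotype. In the wild type, the values above show that Atf4, Ddit3 and Trib3 fell from day 0 to day 7 while Mthfd2, Psat1 and Phgdh rose, 6 of the 10 beside 47.0% of all genes, 25.8% higher and 21.2% lower. In this fit the largest fall was that of Trib3, by 2.11 (SE 0.333, edgeR adjusted p = 0.00054). Over the 26 alternatives Trib3 ran from -2.29 to -1.30 and Ddit3 from -1.67 to -1.40, ranges that overlap. Ddit3 fell by 1.62 (SE 0.131) and Atf4 by 0.85 (SE 0.13), with edgeR adjusted p of 8.07e-06 and 0.000458. Psat1 rose by 1.08 (SE 0.168), Mthfd2 by 0.94 (SE 0.146) and Phgdh by 0.62 (SE 0.179), with edgeR adjusted p of 0.000478, 0.000482 and 0.016. The call for Phgdh was lost without day 0 replicate 1, day 0 replicate 2 or day 7 replicate 1 of the wild type, at edgeR adjusted p of 0.0902, 0.0809 and 0.11. Asns, Shmt2, Atf5 and Chac1 did not pass, with fold changes of -0.04, 0.09, -0.24 and -0.77.

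In the knockout 8 of the 10 passed the test, 6 rising and 2 falling, beside 46.9% of all genes, 24.7% higher and 22.2% lower. Mthfd2 rose most from day 0 to day 7, with a log2 fold change of 2.12 (SE 0.151, edgeR adjusted p = 2.96e-06). Asns rose by 1.37 (SE 0.127), Psat1 by 1.30 (SE 0.169) and Phgdh by 1.01 (SE 0.18), with edgeR adjusted p of 1.5e-05, 0.000134 and 0.00106. For Asns, whose day 0 genotype difference did not hold per length, the rise ran from 0.79 to 1.42 over 26 alternatives. Chac1 rose by 1.04 (SE 0.37) and Atf5 by 0.92 (SE 0.257), with edgeR adjusted p of 0.0409 and 0.0131. Nup62, whose exons overlap those of Atf5, rose as well, by 0.75 (SE 0.207, edgeR adjusted p = 0.0132). Ddit3 fell by 0.74 (SE 0.129) and Atf4 by 0.46 (SE 0.13), with edgeR adjusted p of 0.000914 and 0.0142. Trib3, at -0.62, and Shmt2, at 0.07, did not pass. The genes called in both genotypes were Atf4, Ddit3, Mthfd2, Phgdh and Psat1, each in the same direction in both. Without knockout day 0 replicate 2, 5 of the 10 were called in the knockout, beside 33.4% of all genes. The knockout change of Atf4 missed the threshold without either knockout day 0 library or knockout day 7 replicate 1, at edgeR adjusted p of 0.058 to 0.0756, and that of Atf5 without replicate 2 of either day, at 0.114 and 0.0633. That of Chac1 was lost without any 1 of 9 libraries, at 0.0534 to 0.308, and its rise of 1.04 went to 0.56 without knockout day 7 replicate 2.

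Beside the enzymes that rose, 10 of 11 cell cycle genes rose in each genotype, with medians of 2.70 in the wild type and 4.29 in the knockout. Beside the factors that fell, 10 of 11 genes linked to stress of tissue dissociation, such as Atf3, Hspa1a and Ier3, fell in each genotype, and their sum went from 16180 to 17140 CPM at day 0 to 7972 to 8248 CPM at day 7 in the wild type. All 4 glial markers fell too, from 933 to 977 CPM to 137 to 145 CPM in the wild type, and all 4 tested markers of differentiating muscle cells rose, from 134 to 146 CPM to 2073 to 2373 CPM. All 5 red blood cell markers fell in the wild type, from 877 to 883 CPM to 184 to 245 CPM, and 1 of 5 fell in the knockout, from 193 to 204 CPM to 77.7 to 186 CPM. Of 4 tested immune markers 3 rose in the wild type and 4 in the knockout. Among 8 muscle stem cell markers 3 rose and 3 fell in the wild type, and 5 rose and 3 fell in the knockout. Fibro-adipogenic markers rose for 2 and fell for 1 of 5 in each genotype. Mural markers rose for 1 and fell for 1 of 4 in the wild type, and rose for 1 and fell for 2 in the knockout. Endothelial markers had 0 of 5 called in the wild type, and 2 fell in the knockout. The part of these changes in the results was not tested.

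Whether injury acted differently in the genotypes was tested with the interaction, the day 7 change in the knockout less that in the wild type. Asns, Mthfd2, Ddit3 and Chac1 passed, 4 of 10 and all more positive in the knockout, beside 13.5% of all genes, 6.08% more positive and 7.39% more negative. The difference was 1.41 for Asns (SE 0.178, edgeR adjusted p = 0.00223): its level rose in the knockout from 14.9 and 13.8 CPM to 37.2 and 37.0 CPM, while the day 0 and day 7 libraries of the wild type overlapped. It was 1.18 for Mthfd2 (SE 0.207, edgeR adjusted p = 0.008), which rose in both genotypes and further in the knockout. It was 0.88 for Ddit3 (SE 0.181, edgeR adjusted p = 0.0147), which fell in both genotypes and less far in the knockout. It was 1.81 for Chac1 (SE 0.521, edgeR adjusted p = 0.0462). Atf5 at 1.17 (SE 0.358) and Trib3 at 1.49 (SE 0.457) had edgeR adjusted p of 0.0574 and 0.0577. Nup62, which overlaps Atf5, stood at 0.80 (SE 0.29, edgeR adjusted p = 0.0971). Atf4 at 0.39, Phgdh at 0.39, Psat1 at 0.22 and Shmt2 at -0.01 were further from the threshold.

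The interaction fit on the 8 libraries of day 0 and day 7 called 7 of 10, adding Atf4, Atf5 and Trib3, beside 24.8% of all genes, and the fit without the 2 contradicted day 21 libraries called the same 7, beside 22.8%. Asns and Mthfd2 were called under all 25 alternatives run, at 0.99 to 1.46 and 1.06 to 1.25. Only these 2 were called without either knockout day 0 library, either wild-type day 0 library or wild-type day 7 replicate 1, beside 3.52% to 6.0% of all genes. Ddit3 had edgeR adjusted p of 0.0561 to 0.0626 without any 1 of these 5. Chac1 missed the threshold in 14 of its 25 alternatives and without any 1 of 9 libraries, all but knockout day 7 replicate 1 and the pair labelled wild type at day 21, at differences of 1.32 to 1.97 and edgeR adjusted p of 0.0595 to 0.164. Since the interaction uses the day 0 and day 7 libraries of both earlier comparisons, it is no separate support for them. Of the 11 cell cycle genes 5 were more positive in the knockout and none more negative, of the 8 muscle stem cell markers 3 were more positive and 1 more negative, and of the 5 fibro-adipogenic markers 1 was more positive. Of the 11 dissociation stress genes 1 was more positive and 2 more negative, of 4 tested markers of differentiating muscle cells 1 was more positive, and of 5 endothelial markers 1 was more negative. The part of these lists in the result for the 10 genes was not tested.

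At day 21 by label, no gene of the 10 was called by edgeR between genotypes, beside 0.0126% of all genes, 0.00629% higher and 0.00629% lower. Atf5 stood at 4.22 and 3.88 CPM under the wild-type label and at 1.74 and 2.26 CPM under the knockout label, which did not overlap. Its log2 fold change was -1.01 (SE 0.258, edgeR adjusted p = 0.174). Psat1, at 35.6 and 43.8 CPM against 36.2 and 25.1 CPM, overlapped, with a fold change of -0.38 (SE 0.169, edgeR adjusted p = 0.351). Over 25 alternatives the value of Psat1 ran from -0.67 to -0.14. Atf5 and Psat1 were the 2 genes at an unadjusted p under 0.05, beside 14.2% of all genes, and DESeq2 called 1, Atf5, beside 2.96% of all genes. Without the 2 contradicted libraries, which left 1 library per label that was assumed to vary like the other groups, edgeR called none of the 10 either, while it called 1200 of all genes.

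Chac1 and Trib3 differed within the label wild type at day 21. Chac1 there stood at 7.71 and 3.56 CPM, beside 7.13 and 7.96 CPM under the knockout label. Trib3 stood at 4.70 and 2.23 CPM in those labelled wild type and at 4.65 and 4.09 CPM in those labelled knockout. In both genes wild type replicate 2 was the low one of the 4.

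Averaged over both labels, 6 of the 10 genes differed between day 21 and day 0, 1 higher and 5 lower, beside 45.9% of all genes, 25.0% higher and 20.8% lower. Mthfd2 was higher, at 17.2 to 24.4 CPM over the 4 day 21 libraries against 9.55 to 16.1 CPM at day 0, a rise of 0.75 (SE 0.104, edgeR adjusted p = 0.000259). Ddit3 ranged from 27.5 to 34.5 CPM at day 21 against 52.4 to 71.4 CPM at day 0 and fell by 0.97 (SE 0.0913, edgeR adjusted p = 2.58e-05). Asns ranged from 11.1 to 13.7 CPM at day 21 against 13.8 to 22.1 CPM at day 0 and fell by 0.50 (SE 0.09, edgeR adjusted p = 0.00133). None of these 3 overlapped between the days. Other lists differed between the same libraries by edgeR, and their part in these results was not tested. All 8 muscle stem cell markers were higher at day 21, with sums of 1550 to 2362 CPM against 939 to 1490 CPM at day 0, and all 4 glial markers were lower, with sums of 336 to 529 CPM against 933 to 1241 CPM. Of 5 fibro-adipogenic markers 3 were higher and 1 lower, with sums of 15090 to 24990 CPM against 8044 to 14770 CPM, and 2 of 4 tested markers of differentiating muscle cells and 2 of 4 tested immune markers were higher. Of the 11 dissociation stress genes 1 was higher and 5 lower, with overlapping sums of 15790 to 18490 CPM against 16180 to 20580 CPM, and of the 11 cell cycle genes 1 was higher and 1 lower.

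Trib3 fell by 0.80 (SE 0.227), Psat1 by 0.49 (SE 0.119) and Shmt2 by 0.26 (SE 0.0855), with edgeR adjusted p of 0.0153, 0.00728 and 0.0279. Psat1 and Shmt2 did not pass in log2(TPM + 1), at -0.18 and -0.15 with limma adjusted p of 0.165 and 0.207. Trib3 was lost without wild-type day 0 replicate 2 or knockout day 21 replicate 2, at edgeR adjusted p of 0.066 and 0.0522. Shmt2 was lost without any 1 of 5 libraries, namely knockout day 0 replicate 2, either wild-type day 0 library, knockout day 21 replicate 1 or wild-type day 21 replicate 2, at 0.0532 to 0.112. Atf4 ranged from 451 to 677 CPM at day 21, on both sides of its 573 to 594 CPM at day 0, and did not pass at -0.04 (SE 0.0915). Without the 2 contradicted libraries the 6 genes called over both labels kept the direction of their changes.

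Other genes of the pathway were counted from lists, beside shares of all genes that hold for every list below. On the 12 libraries edgeR called 27.4% of all genes at day 0, 14.8% higher and 12.6% lower, and 1.76% at day 7. From day 0 to day 7 it called 47.0% in the wild type and 46.9% in the knockout, and 13.5% in the interaction. The fit on day 0 and day 7 alone called 38.9% at day 0 and 7.46% at day 7. At an unadjusted p under 0.05 the share of all genes in both directions was not counted at day 7. Of 22 other ATF4 targets, 3 were higher and 6 lower in the day 0 knockout, with a median of 0.01, and 7 were higher and 8 lower in the fit on day 0 and day 7 alone. Pycr1, an enzyme of proline synthesis, fell by 2.18 (SE 0.195) and the stress gene Nupr1 by 1.10 (SE 0.155), while Gpt2, a mitochondrial alanine aminotransferase, rose by 0.97 (SE 0.133). At day 7, 2 were higher and 2 lower, 10 had an unadjusted p under 0.05, and the fit on day 0 and day 7 alone called 6 higher and 3 lower. The hormone gene Fgf21 rose by 1.99 (SE 0.421) there, and the lipoprotein receptor gene Vldlr and the amino acid transporter gene Slc7a5 fell, at -1.26 (SE 0.193) and -0.72 (SE 0.145). From day 0 to day 7, 4 rose and 12 fell in the wild type and 5 rose and 10 fell in the knockout, with Atf3 at -1.67 and Ppp1r15a at -1.61 in the wild type. Atf3 is also among the dissociation stress genes, and Ppp1r15a is also among the eIF2alpha regulators counted below. The interaction called 6, with Pycr1 at 2.15 (SE 0.258), Slc7a11, the cystine transporter, at 2.63 (SE 0.42) and Gpt2 at -1.32 (SE 0.188). This list includes the deleted Sesn2, which the 12-library edgeR test did not call at day 0 (-3.68, SE 1.22, adjusted p = 0.058) or day 7 (-4.42, SE 1.31, adjusted p = 0.17). That test takes a single spread per gene over all 12 libraries. These include the day 21 pairs of Sesn2 at 8.92 and 82.1 CPM and at 9.86 and 108 CPM. The part of that spread in the missed calls was not tested.

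Upstream of ATF4, 15 of 17 listed eIF2alpha kinases and regulators were found. At day 0 4 were higher and 2 lower in the knockout, among them Ppp1r15b and Ppp1r15a, which help dephosphorylate eIF2alpha, at 0.97 (SE 0.112) and 0.54 (SE 0.0949), and Eif2ak4, the gene of the kinase GCN2, at 0.78 (SE 0.137). At day 7 the 12-library fit called 1, Ppp1r15a, at 0.45 (SE 0.0949, edgeR adjusted p = 0.0474), and the fit on day 0 and day 7 alone called 1 higher and 1 lower. Of 22 other serine and one-carbon genes, 2 were higher and 3 lower in the day 0 knockout, beside 27.4% of all genes called. Tyms, thymidylate synthase, fell by 1.00 (SE 0.162), and Shmt1, the cytosolic counterpart of Shmt2, fell by 0.60 (SE 0.131). None of the 22 was called by edgeR between genotypes at day 7, where 5 had an unadjusted p under 0.05, and the fit on day 0 and day 7 alone called 1 higher and 2 lower. From day 0 to day 7, 7 rose and 4 fell in the wild type and 6 rose and 1 fell in the knockout. Shmt1 and Tyms rose by 1.38 and 1.53 in the wild type. Psph, the gene of the last step of serine synthesis, stood lower at day 7. It went from 23.6 and 22.2 CPM to 16.1 and 16.7 CPM in the wild type. In the knockout it went from 23.4 and 25.5 CPM to 20.1 and 18.9 CPM.

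Of 19 endoplasmic reticulum stress genes, 4 were higher and 3 lower in the day 0 knockout and none was called by edgeR at day 7, where 1 had an unadjusted p under 0.05 and the fit on day 0 and day 7 alone also called none. Hyou1, an endoplasmic reticulum chaperone, rose by 1.04 (SE 0.118) and Manf, a secreted stress factor, fell by 0.58 (SE 0.118) at day 0. Of 9 mitochondrial stress genes, 3 were higher and 2 lower at day 0, among them the chaperonin gene Hspe1, which fell by 1.00 (SE 0.167), and 1 was higher at day 7, Fgf21, which is also among the ATF4 targets. The medians of these lists lay between -0.15 and 0.19 at day 0 and between -0.01 and 0.23 at day 7, beside medians of -0.49 and 0.42 for the 10 genes.

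The pattern of each gene over the 12 libraries was set beside those of all other genes tested by Pearson's r of log2 CPM, as a description in which libraries share group, depth and scaling. Among the 10, Psat1 and Phgdh were most alike, at r = 0.914, followed by Ddit3 and Trib3 at 0.91 and Asns and Phgdh at 0.879. Psat1 and Atf4 were least alike, at r = -0.737. Chac1 stood apart, with r of at most 0.395 to any of the other genes of the group. Over all genes tested the closest patterns were those of Ranbp1 for Psat1 (r = 0.992), Ethe1 for Ddit3 (0.991), Rpa2 for Phgdh (0.978), Msc for Mthfd2 (0.976), S100a11 for Asns (0.966), Atp6v0c for Trib3 (0.964), Pqbp1 for Atf4 (0.958), Ube2d2a for Atf5 (0.936), Gper1 for Shmt2 (0.911) and Fan1 for Chac1 (0.899). With Sesn2 itself r ranged from -0.62 for Shmt2 to 0.20 for Atf5.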

How the data were processed

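Per the submitters' processing notes, kallisto 0.46.1 and the builds mm10 and GRCm38.p6 were used; the labels name the SmartSeq v4 and Nextera XT kits and state no strand. The authors deposited estimated counts per gene, TPM of the same genes, which sum to 874221 to 883224 per library, and batch-corrected log2 values; the batch is not given in the sources used here. Estimated counts were rounded, filtered with filterByExpr and scaled by TMM (CPM). One mean per group was fitted with edgeR 4.0.16 (quasi-likelihood, robust, R 4.3.3), and p-values were adjusted by Benjamini-Hochberg over 15890 genes, with a call at an adjusted p under 0.05. Standard errors were taken as fold change divided by root F. Library totals and the number of libraries limit precision; the SE covers the spread between 2 libraries per group.

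The 10 genes and the lists were chosen with earlier results of these data known. The text names these genes, Sesn1 and Sesn2, at most 3 called genes per list with the smallest adjusted p, and for each gene the one with the highest r. Psph, the named markers of differentiating muscle cells and the genes with overlapping exons were added after seeing the data. Some genes that this rule names are not reported here. Alternatives were median-of-ratios size factors, DESeq2 1.42.0, other count filters, a replicate block, fewer libraries, limma 3.58.1 on log2 TPM (pseudocount 1 or 0.1) or on the batch-corrected values, a fold threshold and leaving out each library; a length offset and a fit without 2 day 21 libraries were added after seeing the data. Replicate numbers showed no pairing. On counts simulated for the day 0 comparison, with 200 of 15510 genes changed by 2 on the log2 scale, edgeR recovered 142 with 9 false among 151 calls and DESeq2 146 with 41 false among 187. No other gene was changed there, and the 10 genes differed by less than that at day 0. Recovery of such smaller changes was not measured. Near copies were sought with BLAST 2.17.0 (at least 90% identity over at least 80% of length). Sequences are from RefSeq, and all 10 genes had a promoter there.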

Additional observations from a re-analysis of the deposited data

Results flagged for a closer look

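For 4 of the 10 genes the change from day 0 to day 7 differed between the genotypes by the interaction test, and all 4 were more positive in the knockout, beside 13.5% of all genes called. The difference on the log2 scale was 1.41 for Asns (SE 0.178), 1.18 for Mthfd2 (SE 0.207), 0.88 for Ddit3 (SE 0.181) and 1.81 for Chac1 (SE 0.521), with edgeR adjusted p of 0.00223, 0.008, 0.0147 and 0.0462. That of Asns ran from 0.99 to 1.46 over its alternatives, and its day 0 call, which enters the difference, did not hold per length. Chac1 missed the threshold in 14 of 25 alternatives and Ddit3 without any 1 of 5 libraries.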

How the results depend on the processing

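Over the 41 pairs of a gene and a comparison that had an unadjusted p under 0.05 in the fit reported, each under 25 or 26 alternatives, 927 of 1052 values kept their direction and side of the threshold, 92 lost a call, 33 gained one and none changed sign. The cause of the changes was not tested. Of the 10 genes between genotypes at day 0, 4 were called (beside 27.4% of all genes), and 7 when the 4 libraries were fitted alone (49.5%). With a fold threshold of 1 on the log2 scale 1 was called (9.41%). The count also moved when 1 library was left out. At day 7, 1 was called (1.76%), 3 with DESeq2 (4.95%) or batch-corrected values (3.79%), and 4 without the day 21 libraries (7.46%). None was called in unfiltered TPM (0.461%) or with the fold threshold (0.56%). This count also moved when 1 library or the 2 contradicted ones were left out. At day 21 by label DESeq2 called 1 (2.96%) in place of 0. With the fold threshold 3 were called from day 0 to day 7 in the wild type (23.1%), 5 in the knockout (23.3%) and 0 at day 21 against day 0 (11%); in the knockout leaving out 1 library gave 5 to 9. The interaction called 4 (13.5%), and 7 without the day 21 libraries (24.8%) or in batch-corrected values (14.3%). Its count also moved when 1 library or the 2 contradicted ones were left out.

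Over all genes, counts of calls ran from 1495 to 7317 around 4356 at day 0, from 15 to 1169 around 280 at day 7, from 0 to 1200 around 2 at day 21 (DESeq2 471), from 582 to 3887 around 2141 in the interaction, and down to 3665, 3709 and 1742 for the changes with time (7468, 7450 and 7289) with the fold threshold. In log2(TPM + 1) 69.7% of the calls from day 0 to day 7 in the wild type were higher, against 54.9% in counts. With the replicate block 3 of the 10 genes were called at day 0 (beside 25.7% of all genes), 1 at day 7 (1.28%) and 3 in the interaction (11.3%). Ddit3 at day 0 (adjusted p = 0.0551) and Chac1 in the interaction (0.0585) were lost under it. Deviations of equally numbered libraries correlated at -0.143 to 0.07 between groups, so the numbers were not taken as pairs. In filtered log2 TPM the median of all genes moved by 0.12 to 0.28 from day 0 to day 7, and without the filter by 0.05 or less. With 2 libraries per group, differences under the spread of a low gene such as Chac1 were not detectable.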
